A study of Mus musculus with 19 samples.

Results

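Among 19 mouse hippocampi profiled by RNA-seq, the 6 with the highest and the 6 with the lowest level of Ttr mRNA were set side by side across all genes. The mice were ranked by Ttr CPM (the gene's reads per 1000000 reads counted in the library), so 12 of the 19 libraries stood on one side or the other and 7 lay between them. Ttr encodes transthyretin, a carrier of thyroid hormone and of the retinol-binding protein complex. In the brain it is made mainly by the epithelium of the choroid plexus, the vascular fold that lies in the ventricles, beside the hippocampus, and secretes cerebrospinal fluid. The ventricle wall itself is lined by ependymal cells, which carry bundles of motile cilia. Because the ranking used measured values, the difference between the sides is given as a description without a test. Tests were kept for the 7 middle mice, which the ranking did not place on either side, and for the genotypes.

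The study crossed heterozygous APPswe/PS1dE9 mice (APP/PS1), an amyloid model, with TRE-A2A mice, which carry a cDNA of the adenosine receptor A2AR behind a Tet-responsive element. The paper gives a C57Bl6/J background for the APP/PS1 line, and all animals were females. All of them, controls included, received an AAV2/5 vector encoding the tTA transactivator behind the CBA promoter in the CA1 field at 3 months of age. They were killed at 6 months, so the groups were WT (n = 5) and APP/PS1 (n = 5), both with the vector and without the receptor transgene, and A2A (n = 5) and APP/PS1 A2A (n = 4), in which tTA drove the receptor. Each mouse gave 1 library, and the replicate numbers used here only name the mice.

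Ttr (ENSMUSG00000061808, mm10 chromosome 18, positions 20665250 to 20674324) ranged from 27.8 to 9531 CPM, or from 1016 to 354558 reads, over the 19 mice. On the high side it was 9531 CPM in APP/PS1 replicate 4, 7613 CPM in WT replicate 5, 6777 CPM in A2A replicate 4, 6373 CPM in WT replicate 2, 5119 CPM in WT replicate 4 and 4827 CPM in APP/PS1 replicate 2. On the low side it was 593 CPM in APP/PS1 replicate 5, 185 CPM in WT replicate 1, 174 CPM in APP/PS1 replicate 1, 125 CPM in A2A replicate 5, 84.4 CPM in A2A replicate 2 and 27.8 CPM in APP/PS1 A2A replicate 1. The high mice were close to one another, whereas the low mice ran down a long tail. The last mouse inside the high side, at 4827 CPM, stood beside APP/PS1 A2A replicate 3 at 3495 CPM just outside it. At the other end, the last mouse inside the low side, at 593 CPM, stood beside A2A replicate 3 at 737 CPM, so this limit fell within a gradual slope and not at a step. The 5 other middle mice were APP/PS1 replicate 3 at 2474 CPM, APP/PS1 A2A replicate 2 at 1999 CPM, A2A replicate 1 at 1988 CPM, WT replicate 3 at 1006 CPM and APP/PS1 A2A replicate 4 at 873 CPM.

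**Figure D1:**
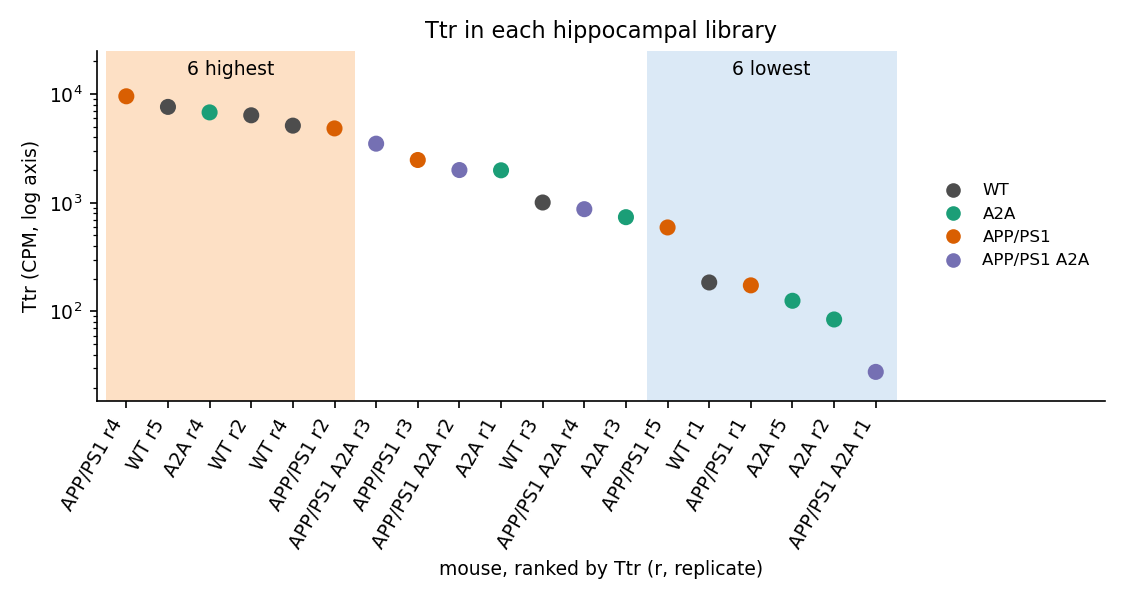
Ttr in CPM on a log axis for each of the 19 mice, ranked from highest to lowest and coloured by genotype, with the 6 highest and the 6 lowest shaded. The high side runs from 4827 to 9531 CPM and the low side from 27.8 to 593 CPM, and 3 of the 4 genotypes occur on both sides.

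Genotypes were mixed on both sides, but not evenly. The high side held 3 WT, 2 APP/PS1 and 1 A2A mice and no APP/PS1 A2A mouse. The low side held 2 A2A, 2 APP/PS1, 1 WT and 1 APP/PS1 A2A mice. WT, A2A and APP/PS1 therefore each gave a comparison of high with low mice of the same genotype. The libraries themselves were alike in depth, with total counts of 30251406 to 39310726 on the high side and 32782781 to 50062369 on the low side. Transcripts of the mitochondrial genome took 2.92 to 3.81% of counts on the high side and 2.94 to 3.48% on the low side, so these ranges overlapped too.

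The sides differed in 1 direction. Of 14933 genes with a mean of at least 1 CPM over the 19 mice, 176 were apart and higher on the high side (1.18%), meaning that the 6 high and 6 low mice did not overlap and that the mean of log2(CPM + 0.5) differed by more than 1. No gene was apart and lower (0%). Without the size limit, 473 genes were higher without overlap (3.17%) and 19 were lower without overlap (0.127%). Nothing is read from these shares, because the mice were chosen by a gene of the same table. The largest of the 19 lower differences was that of Csf2rb2, a cytokine receptor subunit, at -0.87 on the log2 scale, and the smallest was that of Amz2 at -0.13. The median difference of all 14933 genes was 0.01, and the 10th and 90th percentiles were -0.19 and 0.29. Of the 176 genes, 171 were protein coding, 72 differed by more than 2 on the log2 scale, 31 by more than 3 and 12 by more than 4. Within each of the 3 genotypes found on both sides the difference was above 1 for 120 of the 176 genes; that it was positive in all of them follows from the lack of overlap. Leaving out A2A replicate 5, a low mouse, raised the count from 176 to 240, and leaving out APP/PS1 replicate 4, the highest mouse, lowered it to 157. In whole hippocampal RNA, fewer cells of a type and less RNA per cell cannot be told apart.

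The genes that led the list were those of choroid plexus epithelium, whose cells pump ions, bicarbonate and water from blood into the ventricle. The 3 lists of such genes, for transport, for secreted proteins and receptors, and for identity and junctions, held 47 genes other than Ttr that reached 1 CPM. Of these 47, 43 were apart, against 176 of all 14933 genes (1.18%). Ttr, which ranked the mice, is itself a member, and the lists were chosen with earlier results of these data known. This share is therefore a description and not a test. All 47 differences were positive, with a median of 2.80 on the log2 scale, against 0.01 for all genes. The summed level of these lists without Ttr was 7518, 6062, 4563, 4553, 4079 and 3719 CPM in the high mice and 832, 686, 661, 621, 581 and 525 CPM in the low mice. The order of the 19 mice by this sum followed their order by Ttr within 1 rank in 18 mice and within 2 ranks in the other. A2A replicate 3, the middle mouse nearest to the low side, had a sum of 832 CPM, equal to the highest low mouse at this precision.

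**Figure D2:**
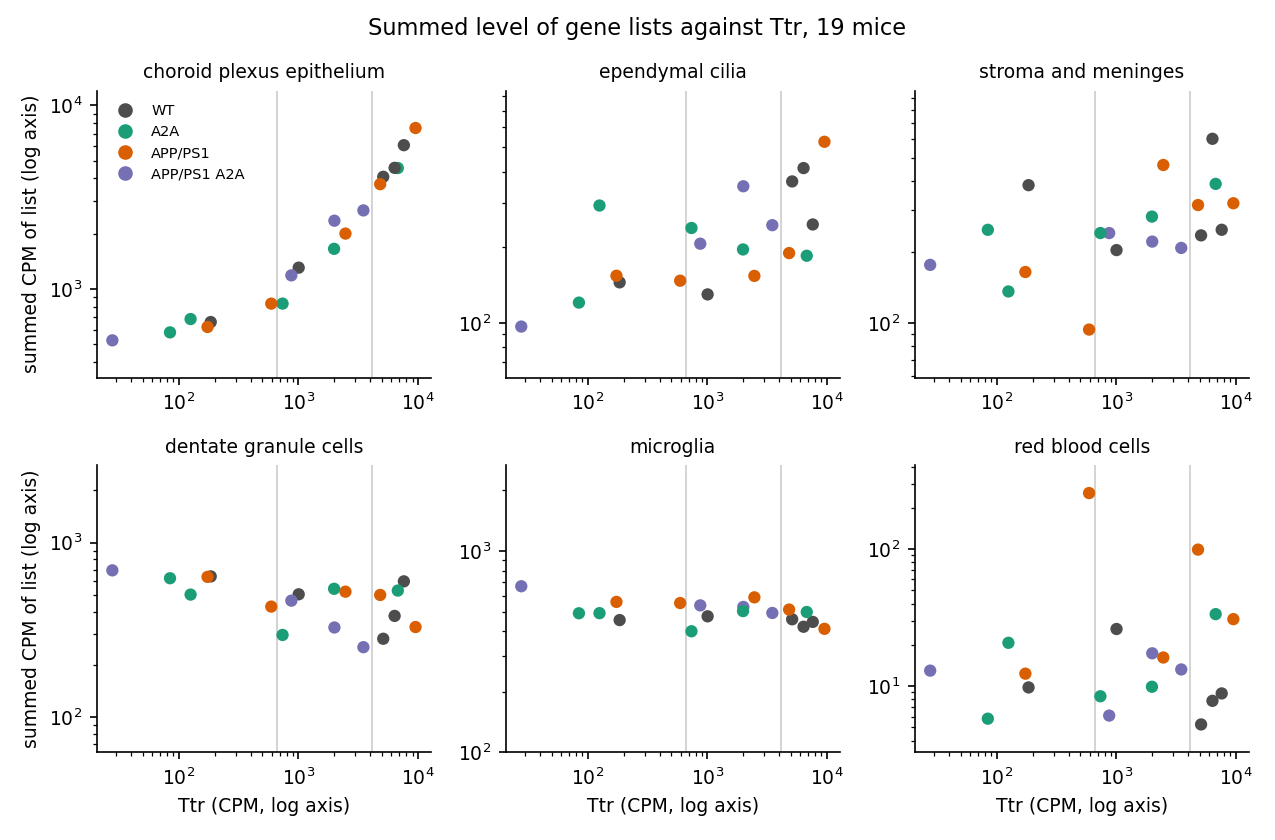
Summed CPM of 6 gene lists (log axis) against Ttr CPM (log axis) in the 19 mice, 1 point per mouse coloured by genotype, with vertical lines at the limits of the low and the high side. The choroid plexus sum (without Ttr) rises with Ttr from 525 to 7518 CPM, while the ependymal sum overlaps between the sides, at 185 to 526 CPM on the high side and 96.7 to 293 CPM on the low side, and the other 4 lists overlap as well.

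Among the transport genes, 14 of 16 were apart, with a median difference of 2.69. Slc4a5, a sodium bicarbonate cotransporter, had a lowest, median and highest level of 32.4, 41.6 and 67.8 CPM in the high mice and 0.219, 1.11 and 3.94 CPM in the low mice, a difference of 4.89. The potassium channel gene Kcnj13 was at 35.4, 45.2 and 81.7 CPM against 0.384, 1.06 and 3.78 CPM (4.75), and Kcne2, a subunit of potassium channels, was at 22.5, 33.5 and 60.0 CPM against 0.247, 1.03 and 4.05 CPM (4.45). Each of these low levels was a few percent of the high level, and the sides were far apart. Aqp1, the water channel of the apical membrane, was at 45.4, 51.9 and 80.4 CPM against 1.07, 2.01 and 5.17 CPM (4.47). Clic6, an intracellular chloride channel protein, was at 77.9, 105 and 211 CPM against 1.78, 7.54 and 12.1 CPM (4.07). Differences were smaller for other members. The anion exchanger gene Slc4a2 had a median of 93.1 CPM on the high side and 30.1 CPM on the low side, so 32.4% of its high level was present in low mice, and for the carbonic anhydrase gene Car12 this share was 46.6%. The 2 transport genes that overlapped between the sides were Slc22a8, an organic anion transporter (0.49), and Slc29a4, a monoamine transporter (0.30).

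All 16 genes for secreted proteins and receptors were apart, with a median difference of 3.15. F5, coagulation factor V, was at 60.1, 76.8 and 154 CPM in the high mice and 0.548, 2.46 and 7.55 CPM in the low mice, a difference of 4.90. Folr1, the folate receptor that carries folate into cerebrospinal fluid, was at 37.5, 44.3 and 67.8 CPM against 0.356, 1.59 and 4.69 CPM (4.64). These genes were nearly silent in the lowest mice. 1500015O10Rik, which RefSeq lists as a synonym of Ecrg4, a secreted peptide precursor, was at 50.6, 74.4 and 109 CPM against 2.38, 3.53 and 6.85 CPM (4.09). Enpp2, which encodes the secreted enzyme autotaxin, was the most read of them after Ttr, at 2039, 2588 and 4367 CPM against 158, 200 and 375 CPM (3.65). Kl, the gene of the anti-ageing factor klotho, kept more of its level, at 142, 175 and 291 CPM against 24.1, 26.1 and 43.3 CPM (2.74). Htr2c, a serotonin receptor that is also present in neurons, was at 99.6, 126 and 187 CPM against 20.2, 34.5 and 55.3 CPM (1.90). The low median was thus 27.4% of the high median for Htr2c, 15% for Kl, 7.73% for Enpp2 and 3.58% for Folr1. Over the 47 choroid genes, this share was under 10% for 24 genes, between 10 and 30% for 14 and over 30% for 9.

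Of 15 genes for identity and junctions, 13 were apart and the other 2 did not overlap but differed by less than 1, with a median difference of 2.40 over the list. Tmem72, which encodes a membrane protein, was at 40.9, 56.3 and 122 CPM in the high mice and 0.356, 1.17 and 5.85 CPM in the low mice, a difference of 5.17. Cldn2, the claudin that makes tight junctions of leaky epithelia permeable to cations, was at 25.2, 33.6 and 73.8 CPM against 0.438, 1.39 and 2.74 CPM (4.38). Otx2, a homeobox factor needed for choroid plexus development, was at 14.3, 22.5 and 43.5 CPM against 0.712, 2.18 and 3.87 CPM (3.29). Col8a1, a collagen chain, differed by 3.92, and Steap1, a metalloreductase family member, by 3.65. The 2 genes under the size limit were Cgn, cingulin of tight junctions (0.82), and Ezr, the membrane linker ezrin (0.77), whose low median was 59.0% of its high median.

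Otx2 protein recognises a short homeobox site, written TAATCC on one strand and GGATTA on the other, and this site was looked for, after the gene values were known, in RefSeq promoters (GRCm38.p6, from 250 bases before to 50 bases after each gene's start). It occurred in 5 of 43 choroid genes with a promoter sequence (11.6%), in 18 of 135 genes apart between the sides (13.3%) and in 2199 of 27025 promoters in all (8.14%). Of these, 2 are shown because one is the promoter of Otx2 itself and the other that of Abca4, a lipid transporter gene with a difference of 2.87, with the site in capitals.
Otx2, chr14:48665060-48665359, minus strand: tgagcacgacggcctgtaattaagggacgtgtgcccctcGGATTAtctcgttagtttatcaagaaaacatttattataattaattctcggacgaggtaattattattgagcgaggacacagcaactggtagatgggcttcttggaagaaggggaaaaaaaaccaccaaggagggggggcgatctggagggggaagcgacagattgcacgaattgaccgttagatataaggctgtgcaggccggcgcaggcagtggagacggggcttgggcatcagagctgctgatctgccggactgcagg
Abca4, chr3:122044210-122044509, plus strand: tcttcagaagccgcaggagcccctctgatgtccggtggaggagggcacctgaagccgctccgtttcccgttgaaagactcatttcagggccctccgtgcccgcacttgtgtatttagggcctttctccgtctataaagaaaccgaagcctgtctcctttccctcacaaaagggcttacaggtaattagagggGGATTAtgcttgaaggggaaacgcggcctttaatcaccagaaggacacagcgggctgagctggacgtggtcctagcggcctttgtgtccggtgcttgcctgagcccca
The site began 211 bases before the start of Otx2 and 58 bases before that of Abca4. A match of letters is a description and does not show that the factor binds there.

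The ventricle wall lies beside the choroid plexus, and the genes of its ciliated cells overlapped between the sides far more. Of 30 genes of motile cilia that reached 1 CPM, 1 was apart, against 1.18% of all genes. It was Wdr63, an axonemal protein gene, at 2.41, 3.99 and 8.49 CPM against 0.0548, 0.575 and 2.29 CPM. All 30 differences were positive, with a median of 1.09. The summed level of the list was 185 to 526 CPM on the high side (median 306) and 96.7 to 293 CPM on the low side (median 146), so the sides overlapped. The order of the mice by this sum departed from that by Ttr by up to 12 ranks. A2A replicate 5, a low mouse with 125 CPM of Ttr, had 293 CPM of cilia genes, more than 3 of the high mice. Foxj1, the master regulator of motile cilia, was at 8.99, 18.1 and 34.9 CPM on the high side and 3.01, 4.49 and 18.5 CPM on the low side. Within A2A the high mouse was below the mean of the low mice for Hydin (-0.69) and Dnah12 (-1.44), both genes of ciliary motility. Without A2A replicate 5, 12 of the 30 cilia genes were apart, whereas the choroid count stayed at 43 of 47 whichever of the 12 mice was left out.

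**Figure D3:**
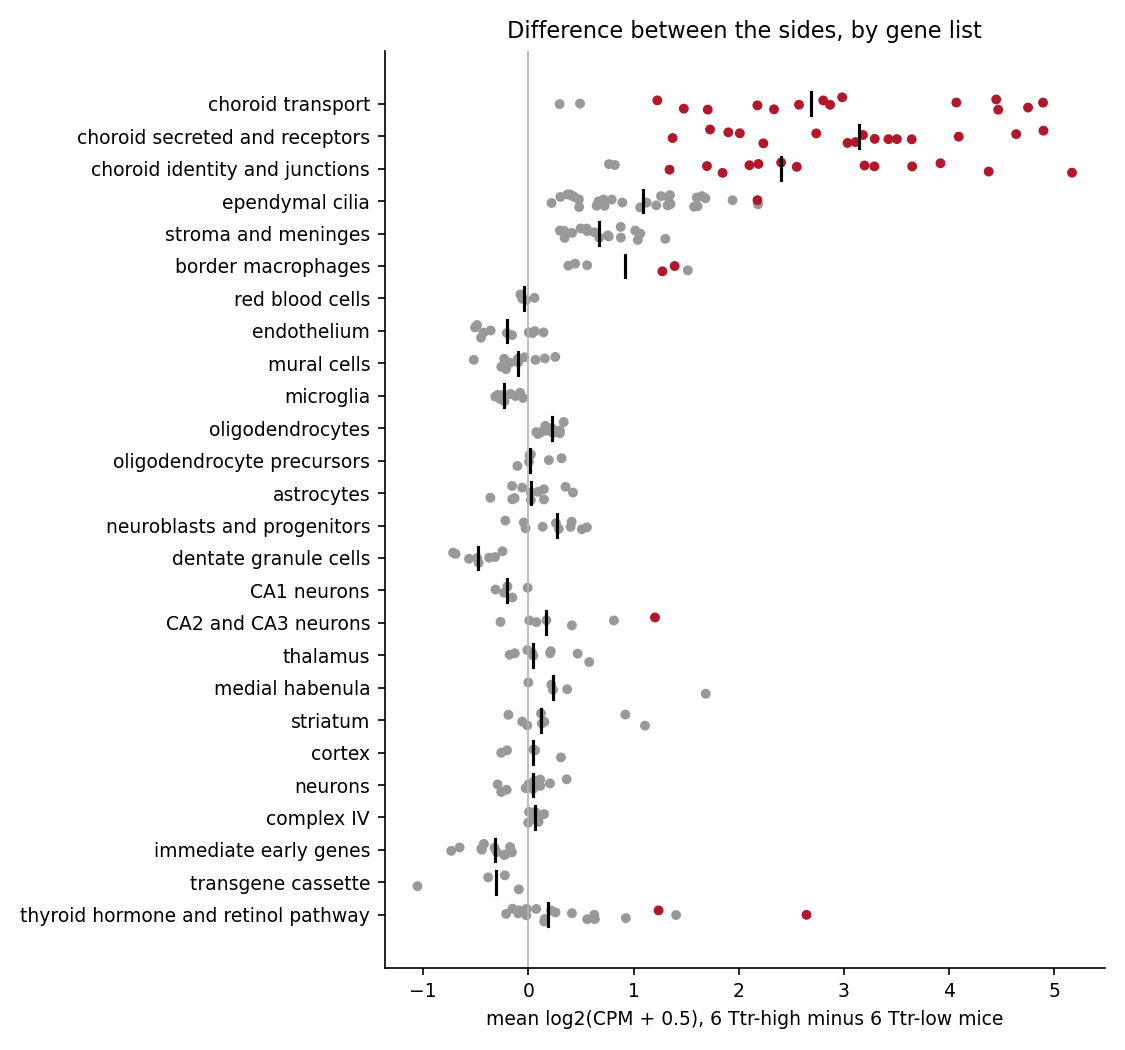
Difference in mean log2(CPM + 0.5) between the 6 Ttr-high and the 6 Ttr-low mice for the genes of 26 lists with a mean of at least 1 CPM and Ttr left out, 1 point per gene, red where the gene is apart and higher, with the median of each list as a black bar. The 3 choroid lists have medians of 2.69, 3.15 and 2.40, ependymal cilia 1.09, and the medians of the neuronal, glial and vascular lists lie between -0.48 and 0.28.

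The lists for other tissue around the hippocampus had smaller medians than the cilia list. The 17 genes of stroma and meninges had a median difference of 0.67 with no gene apart, and their sum was 235 to 603 CPM on the high side against 94.1 to 384 CPM on the low side. Dcn, the collagen-binding proteoglycan decorin, was at 67.6, 93.0 and 176 CPM against 12.9, 36.8 and 104 CPM, and its difference was slightly negative within WT (-0.14). The 6 genes of border macrophages had a median of 0.92, near that of the cilia list, and their sum was 22.4 to 48.3 CPM on the high side against 8.77 to 23.8 CPM on the low side. Of these, the MHC class II genes H2-Ab1 (1.39) and Cd74 (1.27) were apart, H2-Aa (1.52) overlapped, and Mrc1 and Cd163, which define these cells, overlapped with differences of 0.44 and 0.38. Of the red blood cell list, only the 4 haemoglobin genes reached 1 CPM, with a median of -0.04. This median ran from -0.44 to 0.65 when 1 mouse was left out. The summed level of the list was 5.26 to 99.1 CPM on the high side and 5.79 to 256 CPM on the low side. Endothelial genes had a median of -0.20 and mural cell genes one of -0.10, and the sums of both lists overlapped between the sides.

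For the hippocampus proper the differences were small and every list overlapped in its sum, with 1 gene apart. All 8 genes of dentate granule cells were lower on average in the high mice, with a median of -0.48, and Prox1, the granule cell transcription factor, was at 70.0, 110 and 155 CPM against 114, 151 and 184 CPM. The 5 CA1 genes had a median of -0.20 and the 7 genes of CA2 and CA3 one of 0.17, where Coch, which encodes the extracellular matrix protein cochlin, was the gene apart (1.20). All 11 microglial genes were lower on average, with a median of -0.23, and their sum was 411 to 512 CPM against 454 to 669 CPM. The 669 CPM belonged to the only APP/PS1 A2A mouse on either side. Within WT the microglial sum was 444, 421 and 458 CPM against 454 CPM, and within A2A 498 CPM against 491 and 491 CPM. Within APP/PS1 it was 411 and 512 CPM against 552 and 559 CPM. Between genotypes, all 11 genes were higher in APP/PS1 than in WT (edgeR median log2 fold change 0.20). In edgeR 5 of them had an unadjusted p under 0.05, and none had an adjusted p under 0.05. Whether genotype accounts for the lower microglial level on the high side was not tested. All 11 immediate early genes were also lower on average (median -0.32), and all 13 oligodendrocyte genes higher (0.22), but each of these lists overlapped between the sides. Medians were 0.02 for astrocytes, 0.02 for oligodendrocyte precursors, 0.28 for neuroblasts and progenitors, 0.04 for neurons and 0.06 for complex IV of the respiratory chain. Markers of neighbouring regions had medians of 0.05 for thalamus, 0.23 for medial habenula, 0.12 for striatum and 0.05 for cortex. The striatal sum overlapped little, at 316 to 371 CPM on the high side and 278 to 318 CPM on the low side. The order of the mice by it departed from that by Ttr by up to 7 ranks, against 12 for the cilia list. The striatal list held 1 gene without overlap, Ppp1r1b, which encodes the dopamine-regulated phosphatase inhibitor DARPP-32, at 0.92. The 4 genes of the APP/PS1 cassette had a median of -0.30, and the number of APP/PS1 carriers was 2 on the high side and 3 on the low side.

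The pathway that transthyretin serves was described by 20 further genes of thyroid hormone and retinol handling. Their median difference was 0.19, and 2 were apart. Rdh5, a retinol dehydrogenase, was at 16.1, 21.2 and 30.6 CPM in the high mice and 2.36, 3.12 and 4.09 CPM in the low mice, a difference of 2.64. Slco1c1, a thyroid hormone transporter gene, did not overlap between the sides but stayed under the size limit (0.93). Dio2, which activates thyroid hormone, and the receptor gene Thra differed by -0.10 and -0.09, and Klf9, a gene that the hormone induces, by -0.02. The receptor genes and Klf9 overlapped between the sides, as did 16 of the 20 genes in all.

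Ttr alone took 0.483 to 0.953% of all counts in the high mice and 0.00278 to 0.0593% in the low mice. All 176 genes together took 1.01 to 2.01% of counts in the high mice and 0.0987 to 0.199% in the low mice. The level of each gene per unit of Ttr was compared between the high mice as a description. The low median of each gene was subtracted, and the rest was divided by Ttr less its own low median of 150 CPM. On this scale 1500015O10Rik rose by 10.1 to 11.2 CPM for each 1000 CPM of Ttr over the 6 high mice. The same increment was 367 to 444 CPM for Enpp2 and 5.85 to 8.24 CPM for Folr1. Of the 45 choroid genes that exceeded the low median in every high mouse, the increments differed between the highest and the lowest mouse by a median of 1.70-fold, and by less than 2-fold for 34 genes. The widest spread was that of Igf2, a growth factor gene, at 7.69-fold, and the other 2 of the 47 genes, Slc22a8 and Slc29a4, had a high mouse at or under the low median. For cilia genes the median was 5.70-fold, and 12 of the 30 had a high mouse at or under the low median. In the 7 middle mice, the median increment lay within the range of the high mice for 36 of the 47 choroid genes, for example 10.1 CPM for 1500015O10Rik and 7.29 CPM for Kcnj13, whose high mice ran from 5.25 to 9.10 CPM. Single middle mice spread more widely, from 8.13 to 13.7 CPM for 1500015O10Rik, 4.07 to 8.99 CPM for Kcnj13 and 201 to 598 CPM for Enpp2. For Ezr they ran from -10.3 to 29.2 CPM, against 4.38 to 7.39 CPM in the high mice.

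Whether other genes follow Ttr was tested in the 7 middle mice, in which Ttr ran from 737 to 3495 CPM. For each of 16177 genes, edgeR's quasi-likelihood test estimated the slope of log2 expression on log2 Ttr, where a slope of 1 means that a gene doubles when Ttr doubles. In all, 6 genes passed at an adjusted p under 0.05 with a positive slope (0.0371%). They were Steap1 (1.35, SE 0.13, edgeR adjusted p = 0.027), 1500015O10Rik (0.99, SE 0.10, adjusted p = 0.027), Clic6 (0.91, SE 0.09, adjusted p = 0.027), Wdr86 (0.97, SE 0.10, adjusted p = 0.0345), Slc16a8 (1.44, SE 0.16, adjusted p = 0.0345) and Kcnj13 (1.12, SE 0.13, adjusted p = 0.0465). Slc16a8 encodes a lactate transporter of the choroid plexus and the retinal pigment epithelium. All 6 were among the genes apart between the high and the low mice. No gene passed with a negative slope in edgeR or in DESeq2 (0%), and 57 had a negative slope at an unadjusted p under 0.05 in edgeR (0.352%). The next genes by p were Scara5, Ucp2, Aqp1 and Col9a3, each at an adjusted p of 0.0646, with slopes of 0.91, 0.41, 0.88 and 0.68.

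Calls of single genes in 7 mice rested on the tool and on single mice. DESeq2 called 72 of the 32319 genes it tested, including the 6 of edgeR, and 66 of the 72 were among the genes apart between the sides. With a term for APP/PS1 carriers, edgeR called no gene, although 453 had a positive slope at an unadjusted p under 0.05. In these 7 mice the carriers took the first 3 ranks by Ttr. Leaving out APP/PS1 A2A replicate 3, APP/PS1 A2A replicate 4, A2A replicate 3 or WT replicate 3 also left no call, and leaving out APP/PS1 A2A replicate 2 left 2. Of the 175 genes apart other than Ttr, 169 were tested in the middle mice and all 169 slopes were positive, with a median of 0.49 against 0.00 for all genes tested. An unadjusted p under 0.05 was reached by 126 of the 169, whereas 344 of all 16177 genes reached it with a positive slope (2.13%). Among the choroid lists, 45 of 45 slopes were positive, 39 at an unadjusted p under 0.05, 4 called by edgeR and 28 of 49 called by DESeq2. The lists were chosen with earlier results of these data known, so these counts are not an independent test of the lists. Among cilia genes, 17 of 27 slopes were positive with a median of 0.14, none at an unadjusted p under 0.05, and none was called by edgeR or DESeq2.

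**Figure D4:**
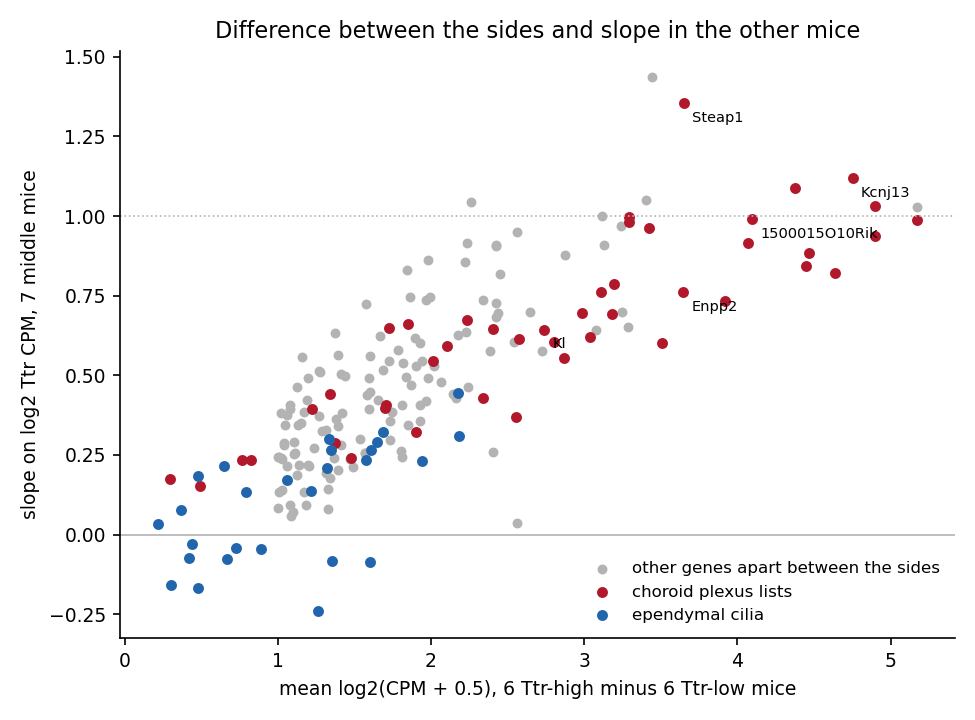
Slope on log2 Ttr in the 7 middle mice (vertical axis, log2 per log2) against the difference in mean log2(CPM + 0.5) between the 6 high and the 6 low mice (horizontal axis) for choroid genes (red), ependymal cilia genes (blue) and the other genes apart between the sides (grey), with a dotted line at a slope of 1. All 45 choroid genes tested lie above 0, and 17 of 27 cilia genes do.

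Genotype was not part of the ranking, so Ttr and the choroid genes could be tested between genotypes. Ttr had a lowest, median and highest level of 185, 5119 and 7613 CPM in WT, 84.4, 737 and 6777 CPM in A2A, 174, 2474 and 9531 CPM in APP/PS1, and 27.8, 1436 and 3495 CPM in APP/PS1 A2A. The 4 ranges overlapped widely. The estimated log2 fold change of Ttr was -1.10 for A2A versus WT (SE 1.22, edgeR adjusted p = 0.971), -0.21 for APP/PS1 versus WT (SE 1.21), -0.21 for APP/PS1 A2A versus A2A (SE 1.28) and -1.10 for APP/PS1 A2A versus APP/PS1 (SE 1.31). When 1 mouse was left out, these values ran from -2.49 (without A2A replicate 4) to -0.74 (without WT replicate 5) for A2A versus WT and from -1.01 (without APP/PS1 replicate 4) to 0.15 (without WT replicate 5) for APP/PS1 versus WT. They ran from -0.94 (without APP/PS1 A2A replicate 3) to 1.18 (without A2A replicate 4) for APP/PS1 A2A versus A2A and from -1.83 (without APP/PS1 A2A replicate 3) to -0.30 (without APP/PS1 replicate 4) for APP/PS1 A2A versus APP/PS1. Such errors leave changes of several-fold in either direction undetectable in these groups.

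In the fit of 18529 genes over all 19 mice, with the study's limits (a log2 fold change beyond 0.32 in either direction and an adjusted p below 0.05), edgeR called 10 genes for APP/PS1 versus WT (0.054%), 12 for APP/PS1 A2A versus A2A (0.0648%) and none for A2A versus WT, for APP/PS1 A2A versus APP/PS1 or for the interaction (0%). In these 3, an unadjusted p under 0.05 was reached by 637 (3.44%), 532 (2.87%) and 704 (3.8%) genes, and DESeq2 called 1, 0 and 1. For APP/PS1 versus WT the same share was 2.26% and DESeq2 called 21 genes, all higher. For APP/PS1 A2A versus A2A the share was 7.7%, and DESeq2 called 162 genes, 56 higher and 106 lower, whereas the 12 genes of edgeR were 11 higher and 1 lower. None of the 49 choroid genes tested was called in any of the 5 comparisons by edgeR or DESeq2, and with edgeR 2 had an unadjusted p under 0.05 for A2A versus WT, 1 for APP/PS1 A2A versus APP/PS1 and none in the other 3. For A2A versus WT the median log2 fold change of the 49 genes was -1.05 and all 49 were negative, and for APP/PS1 A2A versus APP/PS1 it was -0.75 and all 49 were negative. The medians were -0.16 for APP/PS1 versus WT with 4 positive, 0.09 for APP/PS1 A2A versus A2A with 34 positive and 0.27 for the interaction with 41 positive, so in the last 2 they did not have the sign or size of the Ttr estimates, which were -0.21 and 0.00. When log2 Ttr of each mouse was added as a term, the medians for A2A versus WT and APP/PS1 A2A versus APP/PS1 were -0.19 and 0.08, with 14 and 30 of the 49 positive.

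The spread between mice of a genotype is given with and without the Ttr term as a description, since Ttr also ranked the mice and 12 of the 19 were placed by it. The median biological coefficient of variation of the choroid genes was 0.828 without the term and 0.266 with it, that of cilia genes went from 0.617 to 0.492, and that of all genes from 0.153 to 0.143. The calls between genotypes hardly moved. With the term, edgeR again called 10 genes for APP/PS1 versus WT, the same genes, and 14 for APP/PS1 A2A versus A2A, the earlier 12 and 2 more. The 2 were the complement gene C4b, whose adjusted p went from 0.0596 to 0.0398, and the astrocyte gene Gfap, from 0.113 to 0.0269. Their log2 fold changes were 0.86 and 0.82 without the term and 0.84 and 0.79 with it.

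**Figure D5:**
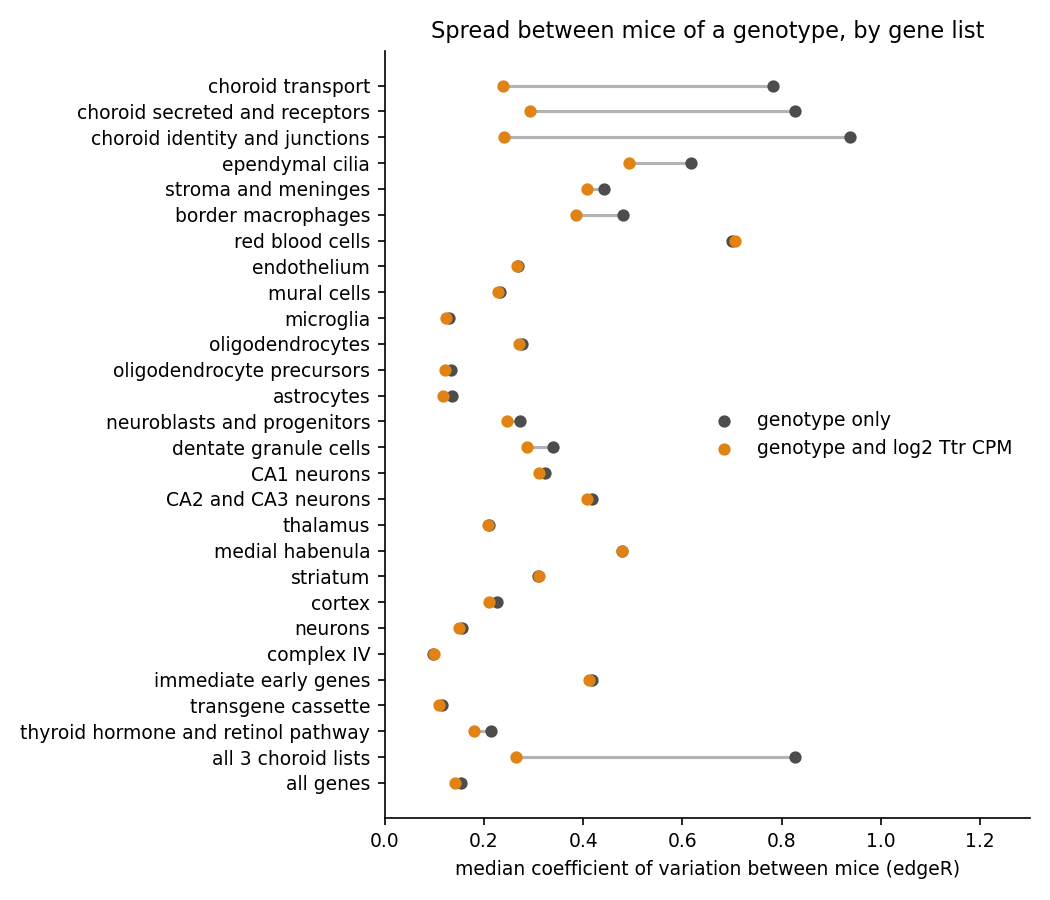
Median biological coefficient of variation between mice (edgeR) of the genes of each list, in a fit of genotype only (dark) and of genotype and log2 Ttr CPM (orange), over 19 mice. The combined choroid lists go from 0.828 to 0.266, and the value for all genes goes from 0.153 to 0.143.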

How the data were processed

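Total RNA from 1 hippocampal dissection per mouse was sequenced as stranded poly(A) libraries. The authors removed adaptors and ribosomal reads, aligned to mm10 with STAR 2.5.3a and counted reads per gene with HTSeq 0.6.1p1; the deposited values used here are these raw counts, and the strand setting of the counting is not given in the sources used here. Of the deposited columns, 9 are headed as log2 fold changes, p-values and adjusted p-values of the authors' own comparisons and were not used; 0 columns of per-sample values were left out.

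CPM were computed from column totals (21305902 to 53717373 counts). Sides were compared as means of log2(CPM + 0.5) over genes with a mean of at least 1 CPM. Slopes (7 middle mice, Ttr left out) and genotype contrasts (4 group means, with and without log2 Ttr) were fitted with edgeR 4.0.16 in R 4.3.3 (TMM, filterByExpr with a minimum count of 10, quasi-likelihood F-test, Benjamini-Hochberg over all genes tested). DESeq2 1.42.0 was the alternative for the slopes and for the genotype contrasts without log2 Ttr. The edgeR slope fit and the edgeR contrast of APP/PS1 versus WT without log2 Ttr were tested on simulated data first.

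The sides and the 26 gene lists (1 gene matched by an older symbol, Tmem27 as Cltrn) were chosen with earlier results of these data known. Named by rule were Ttr, the 15 higher and 10 lower genes apart with the largest difference (none was lower), up to 4 genes of each list with the largest absolute difference, and the 10 genes of smallest slope p; any other gene was named after its values were seen. The labels give each sample's genotype but name neither animals nor batches; the study's methods count mice per group, so each sample was taken as 1 mouse, and p-values measure the spread between these samples. Some single-gene results are not reported here.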

Additional observations from a re-analysis of the deposited data

Results flagged for a closer look

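In 28 measures over the 4 genotypes, 5 of 112 groups held a mouse far from the others of its genotype. Chance flags about 1 in 20 groups, so this number of flags is no more than chance gives. APP/PS1 replicate 4, the mouse with the most Ttr, had 526 CPM of ependymal cilia genes, whereas the APP/PS1 mice other than it had 147 to 190 CPM. A2A replicate 3 had 296 CPM of dentate granule cell genes, against 504 to 625 CPM in the other A2A mice, and 399 CPM of microglial genes, against 491 to 503 CPM. WT replicate 2 had 145 CPM of medial habenula genes, against 55.7 to 68.7 CPM in the other WT mice. WT replicate 4 had 13476 CPM of neuronal genes, against 12053 to 12358 CPM.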

How the results depend on the processing

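The 176 genes apart and higher became 107 with a minimum mean of 5 CPM, and ranged from 157 to 240 when 1 mouse was left out. The count apart and lower was 1 with the 5 highest against the 5 lowest mice, and 0 to 1 when 1 mouse was left out. The 6 slope calls became 72 with DESeq2, 13 without a filter on low counts, 19 with the transport genes as the axis, 0 with a term for APP/PS1 carriers, and 0 to 6 when 1 mouse was left out. With DESeq2 the genotype calls were 21 for APP/PS1 versus WT, 1 for A2A versus WT, 162 for APP/PS1 A2A versus A2A (56 higher and 106 lower, against 11 and 1 with edgeR) and 1 for the interaction. Leaving out 1 mouse gave 8 to 18 calls for APP/PS1 versus WT (18 without APP/PS1 replicate 4) and 10 to 93 for APP/PS1 A2A versus A2A (93 without A2A replicate 3), and 0 for the other 3 comparisons. The cause of these moves was not tested. No difference of a gene named by the rule that was apart between the sides, and no slope or genotype call of such a gene, changed sign under the alternatives run, but estimates that passed no test did when 1 mouse was left out, such as Ttr for APP/PS1 versus WT (-1.01 to 0.15) and APP/PS1 A2A versus A2A (-0.94 to 1.18). No paired analysis was possible because the labels carry no replicate numbers shared between genotypes. The limits of the sides fall on a gradual slope of Ttr, and how each hippocampus was trimmed was not analysed here.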

Other observations

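Many of the 176 genes apart lay outside the lists. Several are best known from the retina, its pigment epithelium or pigment cells. Mfrp, a membrane frizzled-related protein gene, was at 34.6, 45.9 and 84.7 CPM (lowest, median and highest) in the high mice and 0.0822, 0.988 and 3.34 CPM in the low mice, a difference of 5.17. Oca2 (2.87) and Slc24a5 (2.54), melanosome transporter genes, and Rrh (1.84), the gene of the opsin peropsin, were apart as well. These genes were grouped after their values were seen, and no test was made of the group.

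Collagen and basement membrane genes formed another group chosen in the same way. Col8a2 (3.29), Col9a3 (2.42), Col4a3 (2.42), Col4a4 (2.22) and Col18a1 (1.19) were apart, as was Sulf1 (3.25), which edits heparan sulfate. By contrast, none of Col1a1, Col1a2 and Col3a1, the fibrillar collagens of the stroma list, was apart. Sulf1 was at 59.9, 76.5 and 134 CPM in the high mice and 5.78, 8.07 and 12.8 CPM in the low mice.

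A few genes of cilia outside the ependymal list separated the sides where the list did not. Drc7, of the dynein regulatory complex, was at 16.8, 27.2 and 46.6 CPM in the high mice and 0.959, 2.88 and 7.97 CPM in the low mice (3.08), with a slope of 0.64 in the middle mice, and Spag16, of the central apparatus, differed by 2.24. Their slopes did not pass in edgeR.

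The leptin receptor gene Lepr was at 10.1, 13.2 and 20.0 CPM in the high mice and 1.98, 2.34 and 5.16 CPM in the low mice (2.16). Crhr2, a receptor of corticotropin-releasing peptides, differed by 1.13.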
